A study of Sus scrofa with 2 samples.

Results

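Splicing factor genes were examined for peaks of ZBTB16, also called PLZF, in immature spermatogonia of pig testis. ZBTB16 is a DNA-binding repressor that marks spermatogonial stem and progenitor cells. The members were all RefSeq genes on pig build Sscrofa11.1 whose symbol begins with SNRP, SF3A, SF3B, LSM, PRPF, U2AF, SRSF or HNRNP (a number following LSM, PRPF and SRSF), without a SNRPE pseudogene. They were 81 genes, set beside 16509 protein-coding genes with a symbol. The data were CUT&Tag peak lists from 1 group of 2 libraries, replicate 1 and replicate 2, each made from 100000 wild-type cells with an antibody to ZBTB16. In CUT&Tag an antibody tethers a transposase beside its target on chromatin, and the fragments released there are sequenced. Age, pooling of animals and separate cultures are not stated in the labels, and no comparison of conditions exists. Replicate 1 held 10273 peaks and replicate 2 held 7301, of which 50 and 52 were assigned to splicing factor genes. The files hold no expression, so the labelled cell type could not be set against its markers, and an IgG library was not analysed here, so the part of unspecific signal in these peaks was not tested.

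Pre-mRNA splicing is carried out by the spliceosome, which is built on each intron from small nuclear ribonucleoproteins (snRNPs). The core snRNP proteins are the Sm and LSm rings around the snRNAs, the SF3A and SF3B complexes of the U2 snRNP that hold the branch point, and the PRPF proteins of the U4/U6.U5 tri-snRNP. SR proteins mostly bind exons and promote their inclusion, hnRNP proteins coat nascent transcripts and often repress nearby splice sites, and the balance between both sets alternative splicing, which is extensive in testis.

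A gene was called bound if each library's deposited annotation gave it at least 1 promoter peak. This held for 37 of the 81 splicing factor genes (45.7%, 95% Wilson interval 35.3 to 56.5), against 20.8% of all protein-coding genes. By library, 44 had a promoter peak in replicate 1 (54.3%, against 32.8% of all genes) and 45 in replicate 2 (55.6%, against 24.9%). The classes gave the following shares. hnRNP genes had 14 of 20 bound (70.0%, 48.1 to 85.5), SR genes 5 of 11 (45.5%, 21.3 to 72.0) and core snRNP genes 14 of 33 (42.4%, 27.2 to 59.2). The intervals of these classes overlap, and no test between them was made. Of the small remaining classes, U2AF had 1 of 3 bound, LSm proteins outside the U6 ring 2 of 6, and PRPF proteins outside the tri-snRNP 1 of 8. Fold enrichment is the authors' value for each peak, a linear ratio over the background of its own library. When only peaks above the median fold of their list were kept, 24 members stayed bound (29.6%, against 11.6% of all genes), 11 of them hnRNP, 9 core snRNP and 2 SR genes.

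**Figure D1:**
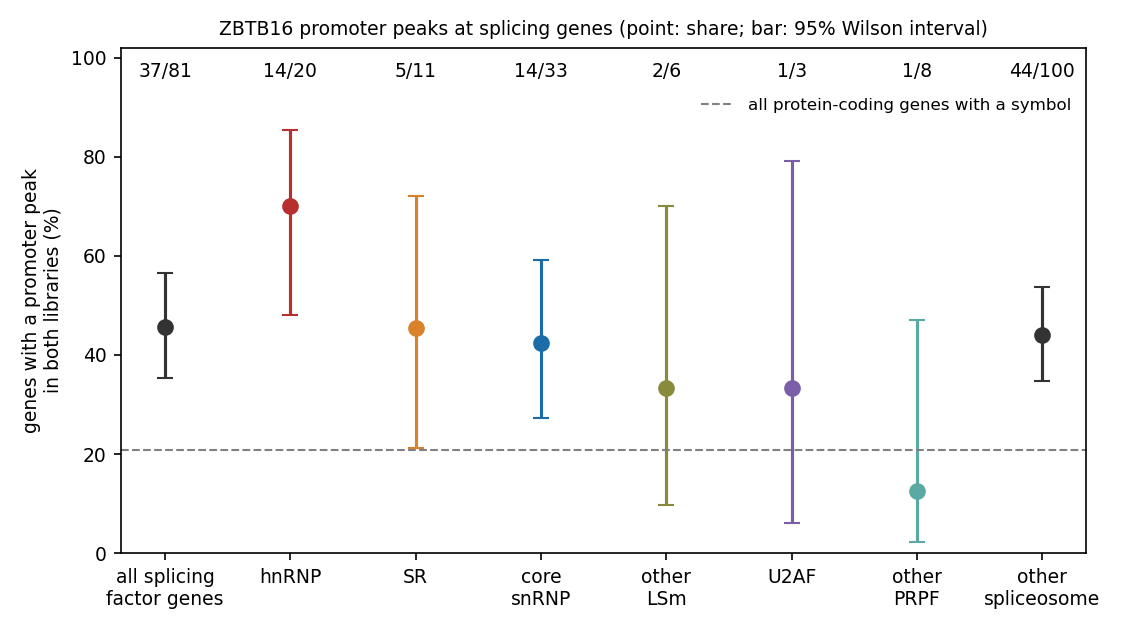
Share of genes with a ZBTB16 promoter peak in both libraries, in percent, for all splicing factor genes, their classes and other spliceosome genes; points are shares, bars are 95% Wilson intervals, and counts stand above. The dashed line is the share of all protein-coding genes, 20.8%; hnRNP genes lie highest at 70.0% and PRPF genes outside the tri-snRNP lowest at 12.5%.

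The highest folds were mostly at hnRNP genes. Over the bound hnRNP genes the median fold was 6.96 in replicate 1 and 6.55 in replicate 2, against 5.85 and 5.44 over all 3440 bound protein-coding genes. HNRNPK, a poly(C)-binding protein of transcription and splicing, had the strongest promoter peak of all members (chr10:30975536-30976057), at 9.25-fold in replicate 1 and 9.87-fold in replicate 2. Its summit rested on 43 fragments (exact 95% Poisson interval 31.1 to 57.9) and 46 fragments (33.7 to 61.4), and its fold lay at the 97.9th and 99.4th percentile of all promoter peaks of the libraries. Among hnRNP genes, ordered by the lower of both folds, HNRNPA0, which binds AU-rich transcripts, followed at 8.54-fold and 8.16-fold on 40 and 37 fragments (chr2:139782409-139783197), and HNRNPUL1, a partner of the DNA damage response, at 8.35-fold and 7.70-fold on 60 and 42 fragments (chr6:49279460-49280343). In these genes the libraries gave nearly the same fold, with ratios of replicate 1 to replicate 2 between 0.937 and 1.08.

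A second tier of hnRNP genes lay between 6- and 8.2-fold in both libraries. HNRNPC, a binder of uridine tracts, had 7.46-fold and 6.99-fold, and HNRNPUL2 had 7.26-fold and 6.74-fold. HNRNPF, which binds runs of guanines, had 6.97-fold and 8.17-fold, and HNRNPL, a reader of CA repeats, had 6.95-fold and 7.98-fold. HNRNPL rested on 59 and 54 fragments, but its recovered background was also high, at 7.64 and 5.89 fragments, against medians of 2.94 and 2.26 over all bound genes. HNRNPR had 8.16-fold and 6.36-fold, and HNRNPA3 had 6.16-fold and 6.25-fold. The weaker bound genes were HNRNPH1 (5.19-fold and 6.12-fold), HNRNPLL, known for splicing of CD45 in lymphocytes (5.29-fold and 5.01-fold), the X-linked HNRNPH2 (5.52-fold and 4.35-fold), HNRNPM (4.96-fold and 3.68-fold) and HNRNPAB (3.89-fold and 3.87-fold). HNRNPAB and HNRNPM stood near the bottom of all promoter peaks of replicate 2, at the 6.55th and 3.28th percentile.

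**Figure D2:**
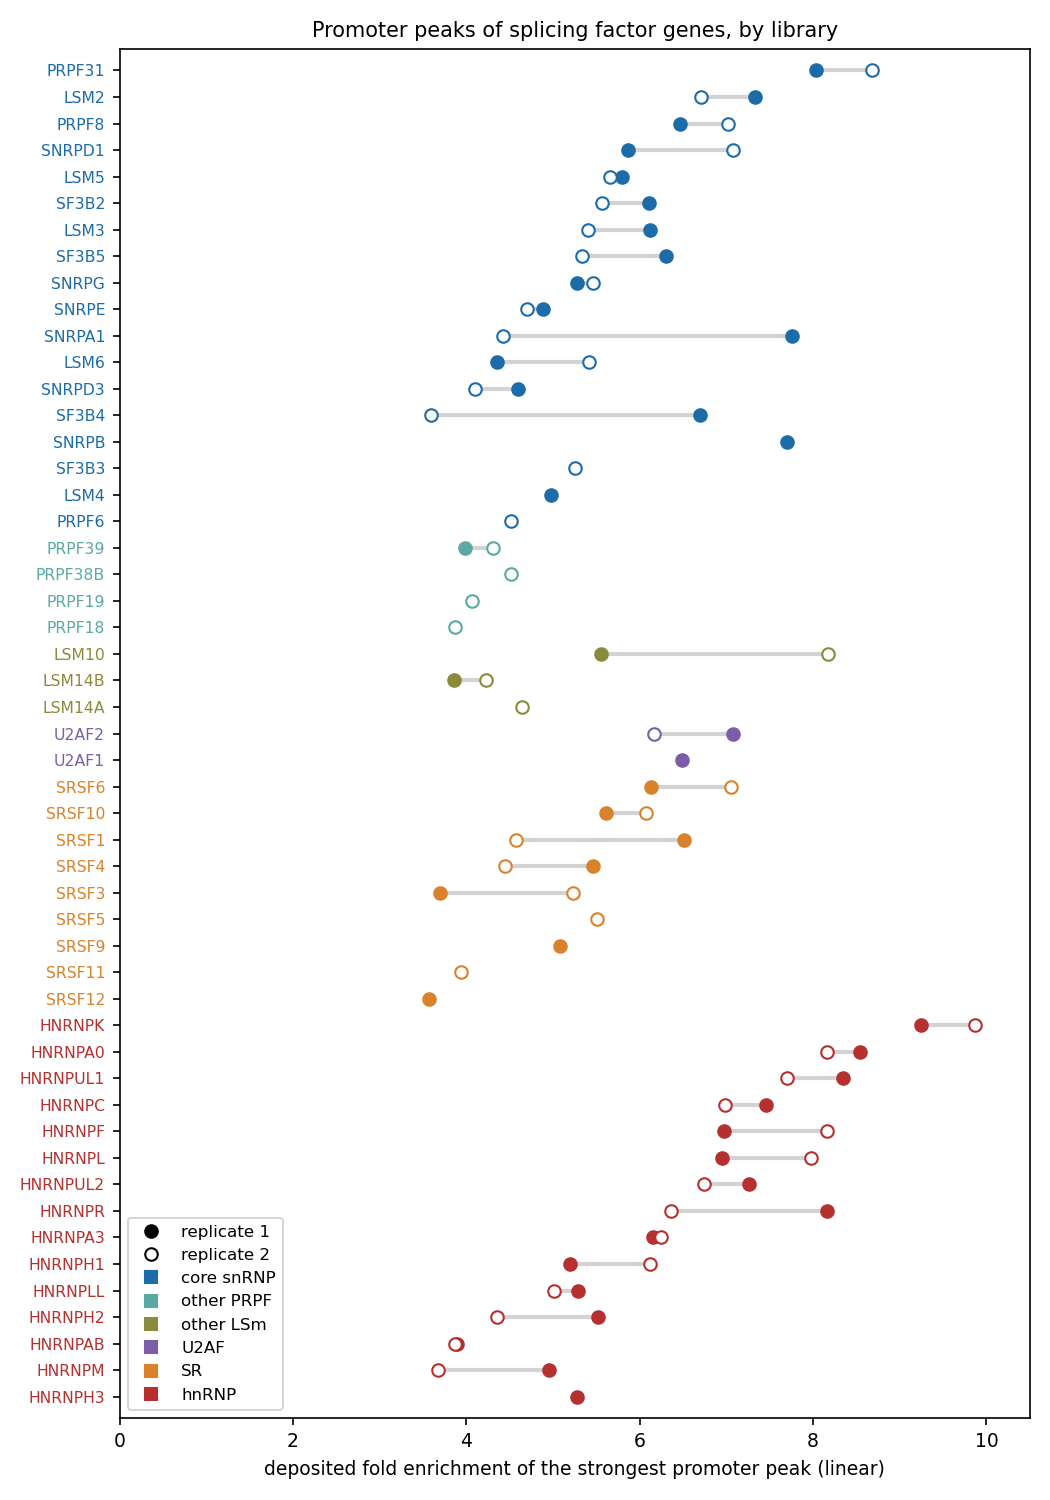
Deposited fold enrichment (linear axis) of the strongest promoter peak of splicing factor genes with a promoter peak in at least 1 library (1 such gene is not drawn); filled circles are replicate 1, open circles replicate 2, colours are classes. HNRNPK is highest at 9.25-fold and 9.87-fold; genes with 1 circle had a promoter peak in that library only.

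The bound core snRNP genes had a median of 6.11-fold in replicate 1 and 5.44-fold in replicate 2. All bound protein-coding genes had 5.85 and 5.44. The bound core snRNP genes are named below. They came from the Sm and LSm rings, SF3B, the tri-snRNP and the U2 protein SNRPA1, while no SF3A gene and neither of the U1 proteins SNRPA and SNRPC was bound. PRPF31, a U4/U6 snRNP protein that holds the tri-snRNP together, was the strongest (chr6:56011393-56011915), at 8.03-fold and 8.68-fold on 37 and 31 fragments. PRPF8, the scaffold of the catalytic centre, had 6.47-fold and 7.02-fold on 23 and 22 fragments. Of the 7 members of the U6 LSm ring 4 were bound, led by LSM2 at 7.33-fold and 6.71-fold on 27 and 21 fragments. LSM3 (6.12-fold and 5.40-fold), LSM5 (5.80-fold and 5.66-fold) and LSM6 (4.35-fold and 5.41-fold) completed them. Sm ring genes had 4 of 8 bound, all on 11 to 16 fragments. SNRPD1 reached 5.87-fold and 7.08-fold, SNRPG 5.28-fold and 5.46-fold, SNRPE 4.89-fold and 4.70-fold, and SNRPD3 4.60-fold and 4.10-fold.

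Among U2 snRNP genes, some had like folds in both libraries and others did not. SF3B2 (6.10-fold and 5.57-fold) and SF3B5 (6.31-fold and 5.33-fold), both subunits of the branch point complex SF3B, had like values in both. SF3B4, another SF3B subunit, had 6.70-fold on 27 fragments (17.8 to 39.3) in replicate 1 and 3.59-fold on 9 fragments (4.12 to 17.1) in replicate 2. SNRPA1, the U2 A′ protein, had 7.76-fold on 28 fragments (18.6 to 40.5) and 4.43-fold on 12 fragments (6.20 to 21.0). The Poisson intervals of SF3B4 do not overlap and those of SNRPA1 do. Both are on raw fragments, not scaled for the depth of each library, and SF3B4 had the highest ratio of the 37 bound members. A difference between the libraries at SF3B4 was therefore not tested. SF3B4 and SNRPA1 were the only bound members whose folds differed by over 1.5 times. In all, 35 of 37 lay within that ratio (94.6%), against 94.0% of all bound genes. The lowest background of the lists, a stand-in for depth, was 1.21 fragments in replicate 1 and 0.979 in replicate 2. Among the factors that read the 3′ splice site, U2AF2, which binds the polypyrimidine tract, was bound at 7.08-fold and 6.17-fold on 61 and 40 fragments, over a high background of 7.76 and 5.65 fragments. Its partner U2AF1, which reads the AG of that site, lacked one in replicate 2 but had 6.49-fold on 19 fragments in replicate 1.

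The 5 bound SR genes had medians of 5.61-fold and 5.23-fold, against 5.85 and 5.44 over all bound protein-coding genes. SRSF6 led at 6.13-fold and 7.05-fold on 29 and 30 fragments (chr17:46118936-46119666). SRSF10, which represses splicing when dephosphorylated and is needed by progenitor spermatogonia in mouse, had 5.61-fold and 6.07-fold on 15 and 17 fragments. SRSF1, the founding SR protein, had 6.51-fold and 4.58-fold, SRSF4 had 5.46-fold and 4.45-fold, and SRSF3, which also serves mRNA export, had 3.69-fold and 5.23-fold. No SR gene reached the 75th percentile of promoter peaks by fold in both libraries. Of the bound members, 11 of 37 did (29.7%, against 20.3% of all bound genes): 8 of 14 hnRNP genes (HNRNPK, HNRNPA0, HNRNPUL1, HNRNPC, HNRNPF, HNRNPL, HNRNPUL2 and HNRNPR) and 3 of 14 core snRNP genes (PRPF31, LSM2 and PRPF8). The hnRNP peaks also lay on a higher recovered background, at medians of 3.56 and 3.04 fragments, against 2.70 and 2.04 at core snRNP genes, and its part in the class difference was not tested.

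**Figure D3:**
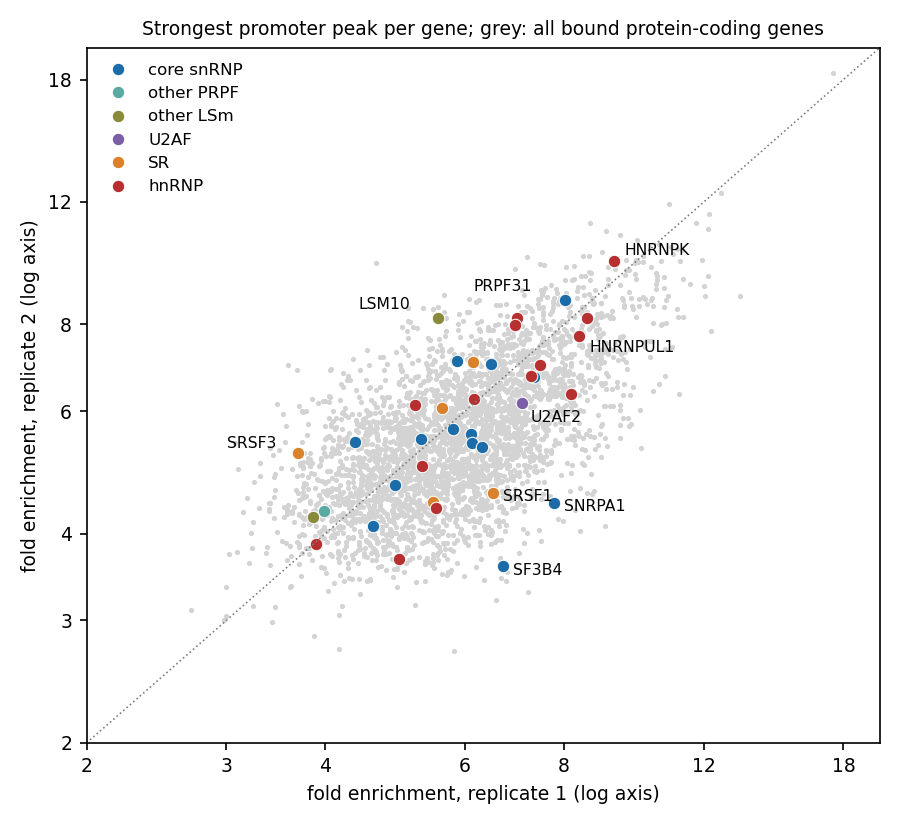
Fold enrichment of the strongest promoter peak of each bound gene in replicate 1 (x) and replicate 2 (y), both on log axes; coloured points are the 37 bound splicing factor genes by class, grey points all bound protein-coding genes, and the dotted line is equality. HNRNPK, PRPF31 and HNRNPUL1 lie at the upper end near the line, and SF3B4 and SNRPA1 lie below it.

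Outside the 3 main classes, LSM10, a protein of the U7 snRNP that trims histone mRNA ends, was bound at 5.55-fold and 8.18-fold on 19 and 20 fragments. LSM14B, a cytoplasmic mRNA-binding protein, had 3.86-fold and 4.23-fold, and PRPF39, which is associated with the U1 snRNP, had 3.99-fold and 4.31-fold. These last had 10 to 15 fragments per summit, near the lowest values of any bound member.

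By definition, bound peaks overlapped the transcription start site (TSS), at a distance of 0, or ended upstream of it. Peaks that overlapped it could reach downstream. The median summit of the bound members lay at −19 bp in replicate 1 and at 19 bp, downstream, in replicate 2. The authors' promoter class ran from −2995 to 0 bp in replicate 1 and from −2910 to 0 bp in replicate 2. In replicate 1, 35 of the 37 promoter peaks spanned the TSS (94.6%, against 86.9% over all bound genes), and in replicate 2, 31 did (83.8%, against 84.2%). The others ended upstream, at most 96 bp away in replicate 1 (LSM14B) and 207 bp in replicate 2 (HNRNPUL1). Summits were within 200 bp of the TSS for 26 genes in replicate 1 and 24 in replicate 2 (70.3% and 64.9%, against 63.8% and 64.0% over all bound genes). Between the libraries the summits of a gene were a median of 101 bp apart, from 1 bp at HNRNPUL1 to 533 bp at SF3B5. At HNRNPUL1 the summit lay at −516 and −515 bp from the TSS, the farthest upstream of the members in replicate 1. The authors' TSS is that of the transcript they assigned, which was another one in replicate 2 for 4 of the 37 genes. hnRNP peaks were wider, at medians of 809 and 732.5 bp, than core snRNP peaks, at 571.5 and 443 bp, while peaks of all bound genes had 662 and 550 bp.

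**Figure D4:**
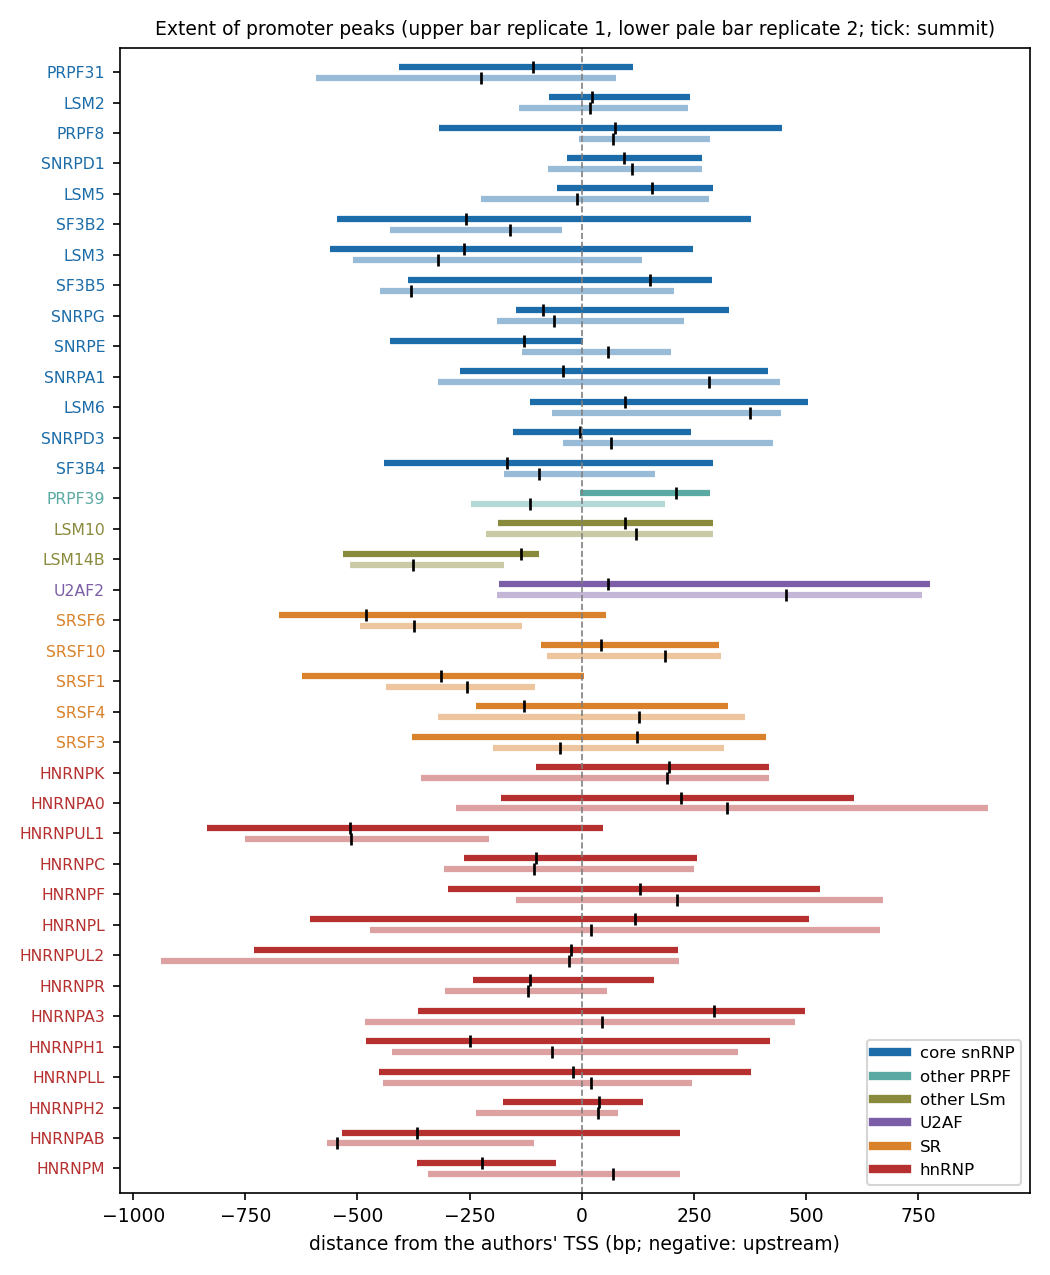
Extent of the strongest promoter peak of each bound splicing factor gene relative to the authors' TSS, in bp, with upstream negative; upper bars are replicate 1, pale lower bars replicate 2, and black ticks the summits. Most bars cross the TSS, 35 of 37 in replicate 1 and 31 in replicate 2.

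A promoter peak in 1 library only was found at 15 members (16.1% of all genes had this), and those named here rested on 8 to 27 fragments. Among those in replicate 1 only were SNRPB, which encodes the Sm B proteins (7.70-fold, 16 fragments), U2AF1, HNRNPH3 (5.28-fold, 22 fragments), SRSF9 (5.08-fold, 21 fragments), LSM4 (4.97-fold, 27 fragments) and SRSF12 (3.57-fold, 9 fragments). In replicate 2 only were SRSF5 (5.51-fold, 20 fragments), SF3B3 (5.25-fold, 14 fragments), LSM14A, a P-body protein (4.64-fold, 12 fragments), PRPF38B (4.52-fold, 13 fragments), the tri-snRNP protein PRPF6 (4.51-fold, 12 fragments), PRPF19, the ubiquitin ligase of the spliceosome (4.07-fold, 11 fragments), SRSF11 (3.94-fold, 11 fragments) and PRPF18, a factor of the second splicing step (3.87-fold, 8 fragments). For 3 of these the other library did have an overlapping peak, which the authors assigned to the neighbouring gene: LRRC40 at SRSF11 and the noncoding LOC106504507 and LOC102160506 at SRSF5 and PRPF38B. With these, 40 of the 45 promoter peaks of members in replicate 2 shared at least 1 bp with a replicate 1 peak (88.9%, against 86.7% of all promoter peaks), and 37 of the 44 in replicate 1 overlapped a replicate 2 peak (84.1%, against 66.9%).

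Peaks of members outside promoters did not recur. None of the 6 in replicate 1 and none of the 7 in replicate 2 overlapped a peak of the other library, whereas 32.0% and 54.1% of all peaks outside promoters did. Several began just downstream of the TSS: SNRPF (37 bp, 4.28-fold), HNRNPDL (49 bp, 4.87-fold) and LSM12 (130 bp, 4.42-fold) in replicate 2, and SF3A3 (100 bp, 3.71-fold), SRSF9 (176 bp, 4.36-fold) and SRSF6 (430 bp, 3.13-fold) in replicate 1. The strongest was a 5′ UTR peak of SF3B1, the branch point subunit often mutated in leukaemia, 18033 bp into the gene in replicate 2 (chr15:101319545-101319833, 7.91-fold, 19 fragments). Peaks assigned to SRSF11, HNRNPA2B1 and PRPF18 lay 16549 to 121639 bp downstream of the TSS, and those of LSM4 and LSM10 lay at −3391 and −9007 bp.

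Many members without a call stood next to a peak of another gene. The annotation names a single gene per peak, so a peak near neighbouring genes is credited to only 1 of them. Whether such peaks mark shared promoters was not tested. The lists give a TSS only for genes with an assigned peak, so for other genes the ends counted here may be 3′ ends. Any assigned peak was found at 58 members (50.7% of all genes had one). Of these 58, 37 were bound (63.8%, against 41.1% of all genes with an assigned peak). The remaining 23 members had no assigned peak, and of these 11 had a peak of a neighbour within 1 kb of either gene end in both libraries, whereas this held for 9.79% of all genes with no assigned peak. Counted this way, whatever gene the peak was assigned to, 53 of 81 members had a peak near an end in both libraries (65.4%, against 29.0% of all genes): 17 of 20 hnRNP, 8 of 11 SR and 21 of 33 core snRNP genes. The bound genes SF3B2 and LSM10 are not in this count, as their promoter peaks lay over 1 kb from either gene end.

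The folds of these neighbours' peaks lay within the range of the bound members. Of the genes listed next beside such a peak, all but SNRPA and SNRPD2 had an end of their own covered by it in both libraries. SNRPA, the U1 A protein, lay beside a peak of C6H19orf54 with 7.48-fold and 8.98-fold on 43 and 49 fragments. SNRPD2 lay beside a QPCTL peak (7.42-fold and 7.22-fold), SF3A2 beside a PLEKHJ1 peak (7.89-fold and 6.07-fold) and SF3A1 beside a CCDC157 peak (7.39-fold and 6.34-fold). SF3B6 and SNRPC were next to peaks of lncRNA loci, at 7.70-fold and 7.24-fold and at 7.46-fold and 6.37-fold. HNRNPA1 and HNRNPA2B1, the most abundant hnRNP proteins of many cells, each lay beside a gene of the heterochromatin protein family HP1: CBX5 at HNRNPA1 (chr5:19484056-19485314, 6.41-fold and 5.70-fold on 45 and 34 fragments) and CBX3 at HNRNPA2B1 (chr18:46204100-46205482, 5.81-fold and 4.88-fold on 34 and 23 fragments). SRSF2 lay beside a MFSD11 peak (5.46-fold and 5.76-fold), LSM1, of the cytoplasmic decay ring, beside a BAG4 peak (6.66-fold and 6.74-fold), PRPF4 beside CDC26, SF3B1 beside COQ10B, and PRPF38A beside ORC1. The TSS that the authors gave SF3B1 lay inside the COQ10B peak in both libraries. That of HNRNPA2B1 lay inside the CBX3 peak in replicate 1 and outside it in replicate 2. The other genes listed beside a neighbour's peak had no assigned peak, so no TSS was given for them. In bound members, too, another gene's end was often close: it lay within 1 kb of the TSS in 14 of 37 (37.8%), against 24.5% of all bound genes. Examples are TFPT, 11 bp from the TSS of PRPF31, RMI1, 90 bp from that of HNRNPK, and XPC, 161 bp from that of LSM3. At such sites the lists do not tell which of the genes the peak belongs to.

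**Figure D5:**
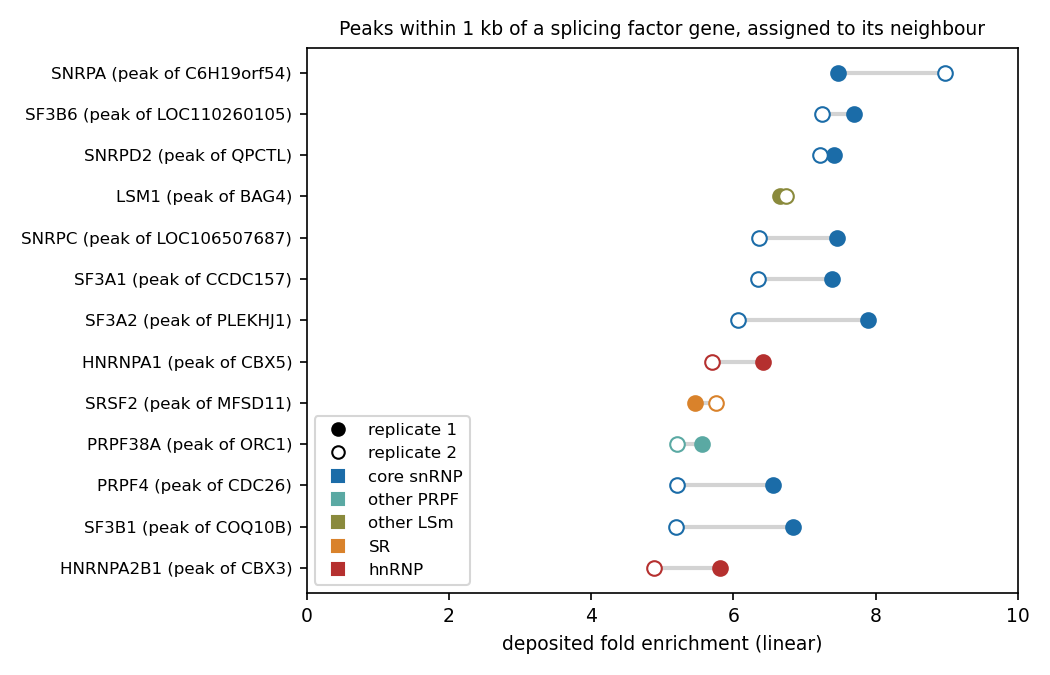
Deposited fold enrichment (linear axis) of the strongest peak within 1 kb of a splicing factor gene end, for the 13 genes not called bound where that peak was assigned to a neighbour in both libraries; filled circles are replicate 1, open circles replicate 2, colours the class of the splicing factor gene. All lie between 4.88-fold and 8.98-fold.

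No peak lay within 1 kb of either end of SRSF7, HNRNPD, HNRNPU, LSM7, SNRPB2, LSM11, PRPF4B and PRPF40B in either library. HNRNPU is the nuclear scaffold protein SAF-A, and HNRNPD, or AUF1, binds AU-rich mRNAs. SNRPN, the Sm B paralogue of neurons, is on an unplaced scaffold and was not checked for neighbours. For bound members the summits held 12 to 61 fragments in replicate 1 and 9 to 54 in replicate 2. The limit of detection was not tested, so lack of a peak does not show lack of binding.

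The other spliceosome genes gave a like share. Of 100 such genes outside the name rule, 44 were bound (44.0%, 34.7 to 53.8), with median folds of 6.04 and 5.60. The strongest was ACIN1, a protein of the exon junction-associated ASAP complex, at 11.15-fold and 8.19-fold on 98 and 52 fragments. WBP11, a spliceosome activator, had 10.3-fold and 7.58-fold, the helicase DHX38 8.11-fold and 6.85-fold, and SF1, the first reader of the branch point, 8.38-fold and 6.62-fold. The U1 protein SNRNP70 (6.99-fold and 6.64-fold), the U5 protein SNRNP40 (6.70-fold and 6.94-fold) and SUGP1 (6.62-fold and 6.45-fold) were also among the strongest. CRNKL1, DDX42, EFTUD2, GEMIN2, GEMIN7 and GEMIN8 were among 20 with no assigned peak.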

How the data were processed

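ZBTB16 CUT&Tag peak lists of 2 libraries were used; the submitters' processing notes name the pig build Sscrofa11.1. The sources used here do not give aligner, caller, control, annotation tool or read depth. Per the file headers, each peak in the deposited lists has a fold, which is a linear ratio over background, a −log10 p-value, a −log10 q-value, a score (the −log10 q-value times 10, not used), and the gene, class and TSS distance the authors assigned. Their promoter peaks had TSS distances of −2995 to 0 bp in replicate 1, where 0 means that the peak overlaps the TSS. Summit fragments and background were recovered as the whole number that satisfies both the deposited fold, (fragments + 1)/(background + 1), and the Poisson −log10 p-value (relative tolerance 1e-05; 100% of peaks); the step was tested on simulated data. Intervals are exact Poisson for fragments and Wilson for shares, at 95%, and cover counting error only. Both libraries carry replicate numbers, but nothing says that they came from separate animals, so their spread may be technical.

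SNRPE-2 in the lists is coding SNRPE by position. RefSeq lists SNRPB, HNRNPU and PRPF38A as lncRNA; of the 78 protein-coding members, 37 were bound (47.4%). The gene table gives no strand, so peaks near either gene end were counted, except for 193 genes on unplaced scaffolds. Any gene of the name rule could be named, and of the other spliceosome genes the 8 bound ones with the highest lower fold and the first 6 without a peak; 2 genes that this rule covers are not reported here by name, though counts include them. Members and lists were chosen with earlier results of these data known, so counts stand beside all genes. Software was scipy 1.17.1, pandas 2.3.3, numpy 2.4.6 and matplotlib 3.10.9 under Python 3.11.15.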

Additional observations from a re-analysis of the deposited data

How the results depend on the processing

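Counts of bound genes were recomputed under 8 other settings for the members, the 3 main classes and the other spliceosome genes, and 4 changed by more than 1.5 times. With peaks above the median fold only, 24 members (37 before), 9 core snRNP genes (14 before) and 2 SR genes (5 before) stayed bound; with any peak within 1 kb of either gene end, SR genes rose to 8. The cause was not tested, though fewer or more peaks enter by construction. By replicate 1 alone, 44 of 81 members had a promoter peak, against 32.8% of all genes. The classes had 16 of 33 core snRNP, 7 of 11 SR, 15 of 20 hnRNP and 65 of 100 other spliceosome genes. By replicate 2 alone, 45 members had a promoter peak, against 24.9% of all genes. The classes then had 16 core snRNP, 7 SR, 14 hnRNP and 51 other spliceosome genes. With replicate 1 reduced to the length of replicate 2 the members had 32 (19.2% of all genes), with promoter peaks within 1 kb of the TSS 37 (20.5%), with any assigned peak 38 (28.2%), and with an assigned peak within 1 kb on either side of the TSS, a setting chosen after seeing the data, 37 (24.1%). With classes by prefix alone the snRNP share was 36.0% of 50 genes. With a reciprocal overlap of at least 0.5, 30 of 44 and 32 of 45 promoter peaks were shared. No paired analysis was possible because there is 1 group. Motifs in promoters were not run, since no promoter sequence was at hand. Peaks of 8 to 15 fragments carry wide counting error.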
